A study of Mus musculus with 16 samples.

Results

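The genes described here are 43 mouse genes of DNA replication and S phase, from the loaders of the replicative helicase to the enzymes that supply nucleotides. They were chosen by name, and their probes were found through the gene symbols matched to the array's accessions. All 43 had a probe, among 20284 genes with a symbol on the array, and 49 probes stood for them.

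Expression was read from 16 arrays of 1 colour, 2 for each of 8 groups. Sorted bone marrow cells of mice gave 4 groups: monocyte and dendritic cell progenitors (MDPs) and common monocyte progenitors (cMoPs), from wild-type (WT) mice and from mice without Irf8 (Irf8KO), none of them transduced. The transcription factor IRF8 directs these progenitors towards monocytes and dendritic cells. The other 4 groups were 32Dcl.3 cells, a mouse myeloid progenitor line kept in conditioned medium of WEHI3B cells, collected 3 days after retroviral transduction. Each 32Dcl.3 group carried 2 MSCV vectors, 1 with a human CD8 marker and 1 with puromycin resistance. Empty vector cells had both vectors empty, IRF8 cells had IRF8 in the CD8 vector, C/EBPalpha cells had C/EBPalpha (a factor of granulocytes and monocytes) in the puromycin vector, and cells with both factors had both. Both coding sequences were murine. The 2 samples of a group came from 2 experiments that the submitters call independent. The labels do not give the age or sex of the mice, how the Irf8 allele was made, the gates of the sort or whether animals were pooled, so the p-values measure the spread between these 2 experiments.

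Before a cell copies its DNA, the origin recognition complex, with Cdc6 and Cdt1, loads the ring-shaped Mcm2-7 helicase onto origins in G1. In S phase Cdc45 and the GINS complex join this ring, polymerases copy both strands behind it, and the sliding clamp Pcna holds the polymerases on the template. Many of the genes are transcribed together at the start of S phase by E2F factors, which cyclin E and its kinase help to release from the retinoblastoma protein. Dividing progenitors express this set strongly, and myeloid cells lower it when they leave the cell cycle at the end of differentiation.

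Signals are given as multiples of the 75th percentile of the array's processed signal, and changes as log2 differences ± SE from limma over 2 arrays per group. A probe's level cannot be set against another probe's. A gene rose or fell when the two-sided p of limma, adjusted over all genes by the method of Benjamini and Hochberg, was under 0.05. Before scaling, that percentile stood between 67.8 and 81.0 for MDPs and between 455.6 and 567.9 for cMoPs. In 32Dcl.3 cells it was 147.3 and 153.8 with both factors, 214.6 and 218.1 with C/EBPalpha, 367.0 and 368.6 with IRF8, and 445.2 and 460.1 with empty vectors, so it moved in the same order as the replication genes below, and its part in their result was not tested. Of the probes, 37.3 to 56.2% were well above background on an array, and none was saturated. All 8 defining markers of MDPs and cMoPs, among them Kit, Flt3, Csf1r and Cx3cr1, were detected in each progenitor group, and all 6 markers of the line in each 32Dcl.3 group. Their levels moved with genotype. In Irf8KO MDPs 5 of the 8 rose and 3 fell, from -0.93 (Cd34) to 1.13 (Fcgr3), where 22.8% of all genes rose and 28.6% fell. In Irf8KO cMoPs 3 rose and 4 fell, from -2.70 (Cd34) to 1.40 (Fcgr3), where 22.9% rose and 31.1% fell. Detection therefore does not show that the sorts held the same cells. The Irf8 probe was well above background in both knockouts (changes of -0.55 in MDPs and -1.48 in cMoPs), and the Irf8 and Cebpa probes were not well above background in any 32Dcl.3 group. These probes therefore do not check the labels. MDPs, cMoPs and 32Dcl.3 cells each had a slide of their own, so stage and slide cannot be told apart, and within a slide the groups also followed the position of the array, which cannot be told apart from genotype or vector.

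Of the 43 genes, 42 were well above background on every progenitor array and on every 32Dcl.3 array. The exception was Ccne2, encoding cyclin E2, which was dim on all 8 progenitor arrays and was not tested there. In 32Dcl.3 cells Ccne2 was well above background with empty vectors and with IRF8 but not with C/EBPalpha or both factors. The median of the replication genes on an array, as log2 of the relative signal, was 5.29 and 5.14 in WT MDPs and 5.08 and 5.01 in Irf8KO MDPs. It was 4.59 and 4.63 in WT cMoPs against 4.33 and 4.35 in Irf8KO cMoPs. In 32Dcl.3 cells it was 4.66 and 4.67 with empty vectors, 4.51 and 4.48 with IRF8, 3.77 and 3.78 with C/EBPalpha and 2.26 and 2.35 with both factors. Irf8KO arrays thus lay below WT arrays at each stage, and the 32Dcl.3 groups lay in the order empty vectors, IRF8, C/EBPalpha, both factors, with no overlap between neighbouring groups.

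**Figure D1:**
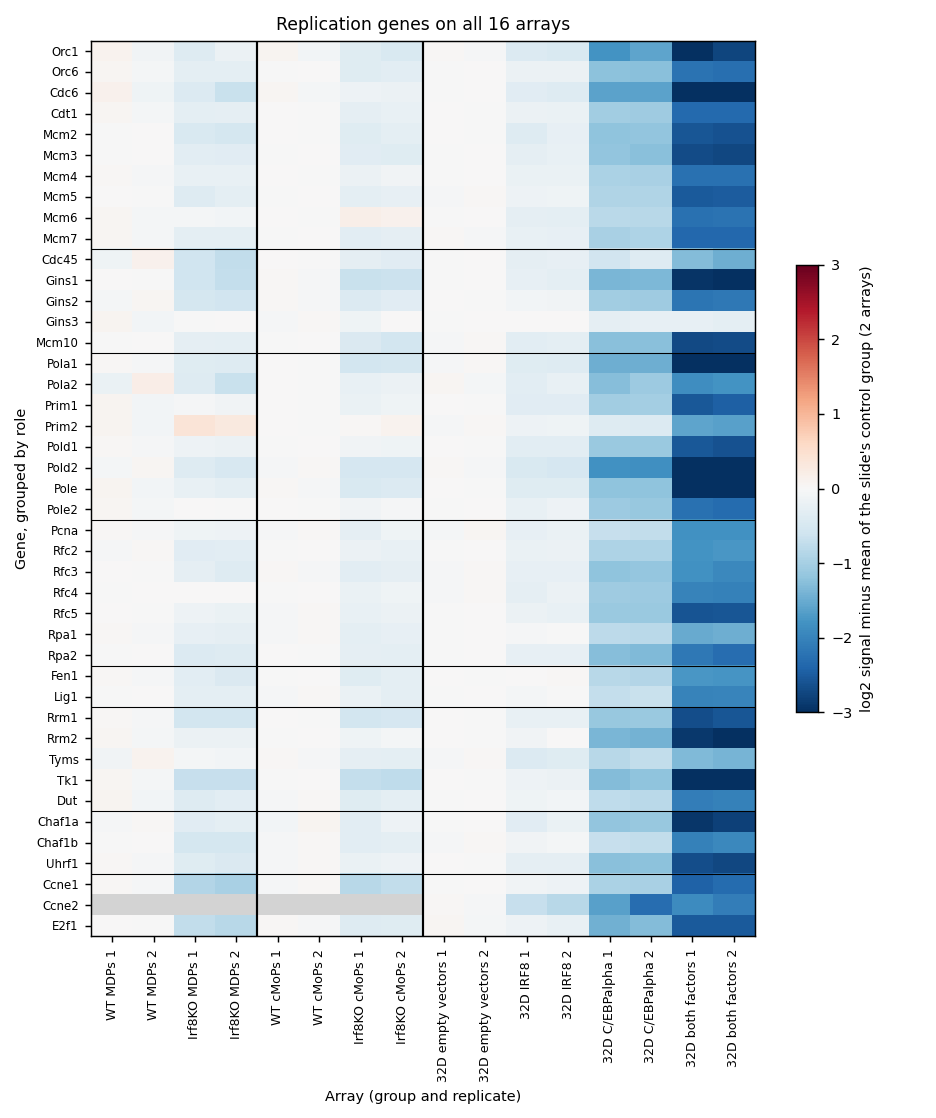
Each row is a replication gene and each column an array; colour is the log2 signal minus the mean of the slide's control group (WT or empty vectors), with values below -3 drawn at the end of the scale and the untested Ccne2 in grey. Horizontal lines separate the roles. The columns of both factors are the darkest, and the Irf8KO columns are pale blue in most rows.

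**Figure D2:**
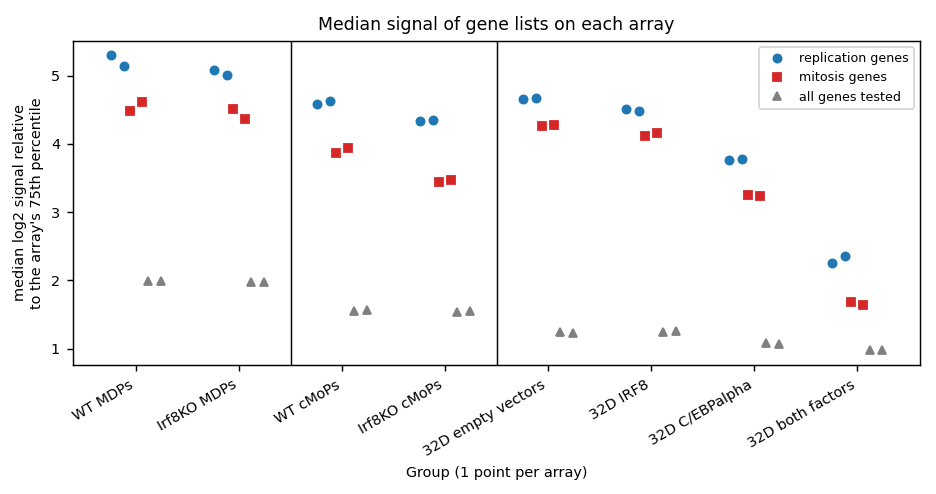
Points give the median log2 signal, relative to the array's 75th percentile, of the replication genes, of the mitosis genes and of all genes tested, 1 point per list and array. The medians cover 42 replication and 19 mitosis genes in progenitors, and 43 and 20 in 32Dcl.3 cells. The replication genes sit at 4.66 and 4.67 with empty vectors and at 2.26 and 2.35 with both factors, while the median of all genes tested lies between 0.98 and 1.24 in those groups.

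The promoters are shown because the replication genes moved together in 32Dcl.3 cells. RefSeq (GRCm38.p6) held windows from 250 bases before to 50 bases after the start for 36 of the 43 genes, 42 windows in all. Among genes with such a window, the 3 with the largest mean change over the cMoP knockout and the cells with both factors were Tk1, Pold2 and Pola1, and Gins3 had the smallest. Mcm6 was added after its values were seen, because it did not fall in either knockout. Sequences run 5′ to 3′ on the gene's strand, and capitals mark matches, on either strand, to the E2F motif in the forms TTTCCCGC, TTTGGCGC, TTTCGCGC and TTTGCCGC.
Tk1 (thymidine kinase, chr11:117825965-117826264, minus strand): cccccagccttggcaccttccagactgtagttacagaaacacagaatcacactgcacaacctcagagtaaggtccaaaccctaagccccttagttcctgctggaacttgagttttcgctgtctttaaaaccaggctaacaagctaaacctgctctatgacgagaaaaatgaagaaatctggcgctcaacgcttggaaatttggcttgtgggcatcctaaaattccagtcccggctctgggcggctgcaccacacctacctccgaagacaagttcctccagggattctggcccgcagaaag
Pold2 (DNA polymerase delta subunit, chr11:5878207-5878506, minus strand, 1 of 2 windows): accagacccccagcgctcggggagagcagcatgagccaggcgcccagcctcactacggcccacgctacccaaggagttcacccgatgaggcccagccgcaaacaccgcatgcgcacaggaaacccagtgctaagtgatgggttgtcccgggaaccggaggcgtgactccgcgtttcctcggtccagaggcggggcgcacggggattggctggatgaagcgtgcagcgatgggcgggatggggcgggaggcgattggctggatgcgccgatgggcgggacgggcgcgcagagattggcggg
Pola1 (catalytic subunit of polymerase alpha, chrX:93632106-93632405, minus strand): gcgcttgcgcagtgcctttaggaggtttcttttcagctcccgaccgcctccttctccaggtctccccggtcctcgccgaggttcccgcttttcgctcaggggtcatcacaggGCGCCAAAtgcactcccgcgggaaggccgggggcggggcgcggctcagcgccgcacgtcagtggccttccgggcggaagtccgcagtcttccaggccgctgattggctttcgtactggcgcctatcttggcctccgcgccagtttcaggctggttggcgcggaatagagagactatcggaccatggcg
Gins3 (GINS subunit, chr8:95633309-95633608, plus strand): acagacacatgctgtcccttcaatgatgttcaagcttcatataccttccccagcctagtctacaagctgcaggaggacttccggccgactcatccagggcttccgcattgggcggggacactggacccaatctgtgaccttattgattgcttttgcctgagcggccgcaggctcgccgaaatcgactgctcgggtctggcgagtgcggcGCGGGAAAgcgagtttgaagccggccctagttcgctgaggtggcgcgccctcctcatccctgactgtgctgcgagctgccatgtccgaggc
Mcm6 (helicase subunit, chr1:128359656-128359955, minus strand): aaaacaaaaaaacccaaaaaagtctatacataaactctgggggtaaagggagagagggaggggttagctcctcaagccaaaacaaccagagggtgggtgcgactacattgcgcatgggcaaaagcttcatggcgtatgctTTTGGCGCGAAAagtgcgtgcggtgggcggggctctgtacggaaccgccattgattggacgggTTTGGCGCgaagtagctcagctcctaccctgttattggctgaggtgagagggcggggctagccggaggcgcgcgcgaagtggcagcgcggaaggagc
Pola1 held 1 match, at base -138 from the start, and Gins3 held 1, at -41. Mcm6 held 3, of which 2 overlapped, at -110, -106 and -47. These letters were not in the windows shown for Tk1 and Pold2.

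An E2F match was present in 14 of the 42 windows of the replication genes (33.3%) and in 744 of 32851 windows of all genes (2.26%). The CCAAT box, searched as CCAAT on both strands, was in 54.8% of the replication windows and 37.4% of all windows, and the GC box, searched as GGGCGG on both strands, in 73.8% and 35.7%. None of the E2F forms contains either of these motifs. In the 17 windows of mitosis genes an E2F match was in 5.88%, a CCAAT box in 82.4% and a GC box in 82.4%. Replication genes with an E2F match and those without one are set side by side here. With both factors the median log2 change was -2.44 over the 14 genes with a match and -2.30 over the 22 without, and in Irf8KO cMoPs it was -0.25 and -0.30. A match describes the letters of the window and does not show that a factor is bound there. Nor does the lack of a match to the listed forms in these windows show that a gene has no E2F site.

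The comparison of Irf8KO with WT cells asked how loss of Irf8 changed progenitors at 2 stages. In Irf8KO MDPs 34 of the 42 tested replication genes fell, 1 rose and 7 did not pass the test. Of all 11964 genes tested, 28.6% fell and 22.8% rose. The changes were small: the median was -0.32, against -0.02 for all genes tested, and no replication gene fell 2-fold or more, as 2.83% of all genes did, although Ccne1 reached -1.02 with arrays scaled to their median and -1.16 with the mean of its probes. The largest falls were those of Ccne1, encoding cyclin E1, at -0.93 ± 0.049, and of the S phase transcription factor gene E2f1, at -0.79 ± 0.039. In a bulk sample a lower signal can mean fewer cells in S phase or less RNA per cell, and these cannot be told apart.

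Irf8KO cMoPs gave the same counts, with 34 genes lower, 1 higher and 7 not called, where 31.1% of all genes tested fell and 22.9% rose. The median was -0.28 against -0.03 for all genes tested, and again no replication gene fell 2-fold, as 3.68% of all genes did. With arrays scaled to their median, the median of the replication genes was -0.60 against -0.34 for all genes, 41 fell and none rose, and Ccne1 (-1.10) and Tk1 (-1.055) passed 2-fold. The MDP and cMoP comparisons share no arrays, and 31 genes fell in both, 91.2% of each list of 34. Of all genes tested 2373 fell in both, which is 69.4% of those lower in MDPs and 63.7% of those lower in cMoPs. The 3 genes lower only at the MDP stage were Cdc6, Pola2 and Rrm2, and the 3 lower only at the cMoP stage were Orc1, Prim1 and Rfc4. Among these genes the difference between the stages passed the test only for Rfc4 (-0.17 ± 0.051). A second Rfc4 probe, detected on all 8 arrays, gave -0.045 for that difference.

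The regulators of the G1 to S transition, with 2 genes tested, had the largest median change of the roles, -0.86 in MDPs and -0.58 in cMoPs. In cMoPs this rested on Ccne1, because E2f1 changed less there than genes of other roles such as Tk1 (-0.74) and Gins1 (-0.65). Ccne1, whose product activates Cdk2 at the start of S phase, read 18.1 and 17.5 in WT MDPs, 9.63 and 9.09 in Irf8KO MDPs, 11.1 and 11.7 in WT cMoPs and 6.42 and 6.82 in Irf8KO cMoPs. Its change was -0.93 ± 0.049 (adjusted p = 1.4e-07) in MDPs and -0.78 ± 0.049 (adjusted p = 2.99e-07) in cMoPs, 1.9-fold and 1.72-fold lower. E2f1 read 31.2 and 30.2 in WT MDPs, 18.3 and 17.4 in Irf8KO MDPs, 13.4 and 12.9 in WT cMoPs and 10.04 and 10.1 in Irf8KO cMoPs. It changed by -0.79 ± 0.039 (adjusted p = 9.69e-08) in MDPs and -0.38 ± 0.039 (adjusted p = 1.47e-05) in cMoPs. The genotypes did not overlap at either stage for either gene.

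Of the 10 helicase loading genes, 8 fell in MDPs and 8 in cMoPs. Cdc6, the ATPase that recruits Cdt1 and the Mcm ring, read 3.55 and 2.97 in WT MDPs, 2.45 and 2.03 in Irf8KO MDPs, 3.56 and 3.32 in WT cMoPs and 3.07 and 3.05 in Irf8KO cMoPs. It changed by -0.54 ± 0.1 (adjusted p = 0.00121) in MDPs, while the change in cMoPs, -0.17 ± 0.1, did not pass the test (adjusted p = 0.18). A second Cdc6 probe, detected on all these arrays, gave -0.08 in MDPs, so the probes disagree on the size of that fall. Orc1, the largest subunit of the origin recognition complex, read 1.11 and 0.972 in WT MDPs, 0.793 and 0.921 in Irf8KO MDPs, 0.638 and 0.576 in WT cMoPs and 0.468 and 0.441 in Irf8KO cMoPs. Its change was -0.28 ± 0.12 in MDPs (adjusted p = 0.0796) and -0.42 ± 0.12 in cMoPs (adjusted p = 0.0154).

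Of the 6 subunits of the Mcm2-7 ring, 5 fell at both stages. Mcm2, Mcm3, Mcm4, Mcm5 and Mcm7 changed by between -0.22 (Mcm4) and -0.49 (Mcm2) in MDPs and between -0.14 (Mcm4) and -0.35 (Mcm3) in cMoPs. Mcm6 read 459 and 427 in WT MDPs, 424 and 420.1 in Irf8KO MDPs, 177 and 173 in WT cMoPs and 196 and 190.5 in Irf8KO cMoPs. The difference in MDPs did not pass the test (-0.07 ± 0.045, adjusted p = 0.234), and in cMoPs both knockout arrays were above both WT arrays (0.14 ± 0.045, adjusted p = 0.0196), a rise that became -0.17 when arrays were scaled to their median. Orc6 and Cdt1, the licensing factor, changed by -0.30 and -0.29 in MDPs and by -0.33 and -0.24 in cMoPs.

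Among the genes that activate the helicase, 4 of 5 fell at each stage. Gins1, a subunit of the GINS complex, read 25.3 and 24.8 in WT MDPs, 16.6 and 15.4 in Irf8KO MDPs, 13.4 and 12.7 in WT cMoPs and 8.28 and 8.33 in Irf8KO cMoPs. The change was -0.65 ± 0.045 in MDPs and -0.65 ± 0.045 in cMoPs, 1.57-fold in the first and 1.57-fold in the latter. Cdc45 changed by -0.66 ± 0.091 and -0.30 ± 0.091, and Gins2 by -0.56 ± 0.052 and -0.37 ± 0.052. Mcm10, which helps the assembled helicase to fire, read 27.3 and 28.1 in WT MDPs, 22.9 and 22.6 in Irf8KO MDPs, 17.5 and 17.6 in WT cMoPs and 13.1 and 12.1 in Irf8KO cMoPs, with changes of -0.29 ± 0.043 and -0.48 ± 0.043. Gins3 was the exception in this role, at 0.004 ± 0.056 in MDPs (adjusted p = 0.959) and -0.06 ± 0.056 in cMoPs (adjusted p = 0.424).

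The polymerase and primase genes were the role with the most genes that did not fall. Of 8 genes, 5 fell in MDPs and 5 in cMoPs. Pola1 read 19.04 and 18.01 in WT MDPs, 14.3 and 14.2 in Irf8KO MDPs, 13.2 and 12.98 in WT cMoPs and 8.98 and 9.14 in Irf8KO cMoPs, with changes of -0.38 ± 0.039 and -0.53 ± 0.039. Pold2, a subunit of the lagging strand polymerase delta, read 13.04 and 14.3 in WT MDPs, 10.5 and 9.84 in Irf8KO MDPs, 6.604 and 6.82 in WT cMoPs and 4.76 and 4.71 in Irf8KO cMoPs, with changes of -0.43 ± 0.053 and -0.50 ± 0.053. Pole, the catalytic subunit of the leading strand polymerase epsilon, read 38.5 and 34.2 in WT MDPs, 30.9 and 29.7 in Irf8KO MDPs, 19.6 and 18.8 in WT cMoPs and 14.1 and 14.6 in Irf8KO cMoPs, with changes of -0.26 ± 0.054 and -0.42 ± 0.054. In all 3 genes both knockout arrays lay below both WT arrays at each stage.

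Prim2, the large subunit of primase, was the gene that rose in MDPs. Its probe read 17.6 and 15.8 in WT MDPs, 21.96 and 20.4 in Irf8KO MDPs, 8.23 and 8.095 in WT cMoPs and 8.39 and 8.72 in Irf8KO cMoPs. The rise in MDPs was 0.34 ± 0.055 (adjusted p = 0.000492), and it passed the test under each alternative tried, while the change in cMoPs was 0.07 ± 0.055 (adjusted p = 0.322). Its partner Prim1, the catalytic subunit, changed by -0.08 ± 0.05 in MDPs (adjusted p = 0.219) and -0.17 ± 0.05 in cMoPs (adjusted p = 0.0137). Pole2 stayed at 0.004 ± 0.049 and -0.07 ± 0.049, neither past the threshold.

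The clamp, its loader and the proteins that coat single strands fell modestly, with 6 of 7 genes lower in MDPs and 7 of 7 in cMoPs. Rpa2, a subunit of the single-strand binding protein, read 11.8 and 11.9 in WT MDPs, 8.88 and 9.12 in Irf8KO MDPs, 6.49 and 6.43 in WT cMoPs and 5.33 and 5.31 in Irf8KO cMoPs, with changes of -0.39 ± 0.038 and -0.28 ± 0.038. Rfc3, a subunit of the clamp loader, read 3.68 and 3.56 in WT MDPs, 2.99 and 2.79 in Irf8KO MDPs, 2.77 and 2.66 in WT cMoPs and 2.18 and 2.24 in Irf8KO cMoPs, with changes of -0.33 ± 0.059 and -0.30 ± 0.059. Rfc5, of the same complex, read 93.5 and 91.3 in WT MDPs, 82.6 and 80.8 in Irf8KO MDPs, 34.6 and 36.7 in WT cMoPs and 30.7 and 31.7 in Irf8KO cMoPs, with changes of -0.18 ± 0.039 and -0.19 ± 0.039. Pcna itself, often used as a marker of proliferation, changed little, by -0.15 ± 0.052 (adjusted p = 0.0376) in MDPs and -0.20 ± 0.052 (adjusted p = 0.00813) in cMoPs. Rfc4 was at 0.01 ± 0.036 in MDPs, where a second detected probe gave -0.17, and changed by -0.17 in cMoPs.

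Both genes that finish Okazaki fragments, the short pieces of the lagging strand, fell at each stage. The flap nuclease gene Fen1 read 78.7 and 76.2 in WT MDPs, 62.1 and 57.8 in Irf8KO MDPs, 65.99 and 66.3 in WT cMoPs and 51.1 and 53.7 in Irf8KO cMoPs, with changes of -0.37 ± 0.043 and -0.34 ± 0.043. The ligase gene Lig1 read 125 and 128 in WT MDPs, 103 and 104 in Irf8KO MDPs, 55.8 and 58.5 in WT cMoPs and 49.5 and 46.5 in Irf8KO cMoPs, with changes of -0.29 ± 0.041 and -0.25 ± 0.041. Knockout and WT arrays did not overlap for either gene at either stage.

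Of the 5 genes of nucleotide supply, 4 fell in MDPs and 3 in cMoPs. Tk1, which salvages thymidine, read 61.9 and 57.6 in WT MDPs, 37.2 and 36.8 in Irf8KO MDPs, 37.9 and 39.1 in WT cMoPs and 23.4 and 22.6 in Irf8KO cMoPs. It fell 1.61-fold in MDPs (-0.69 ± 0.041, adjusted p = 3.74e-07) and 1.67-fold in cMoPs (-0.74 ± 0.041, adjusted p = 1.25e-07). Rrm1, the large subunit of ribonucleotide reductase, changed by -0.55 ± 0.038 and -0.53 ± 0.038. Its partner Rrm2, the subunit that is made in S phase, read 66.2 and 61.9 in WT MDPs, 56.5 and 56.2 in Irf8KO MDPs, 42.7 and 43.8 in WT cMoPs and 39.4 and 41.3 in Irf8KO cMoPs. The Rrm2 change was smaller, -0.18 ± 0.041 in MDPs (adjusted p = 0.00411) and -0.10 ± 0.041 in cMoPs (adjusted p = 0.0601). Dut, which removes dUTP, changed by -0.35 and -0.33. The thymidylate synthase gene Tyms was at -0.07 ± 0.12 and -0.28 ± 0.12, neither past the threshold.

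All 3 genes of chromatin assembly and methylation upkeep fell at both stages. Chaf1a and Chaf1b encode subunits of the factor that places histones on new DNA. Chaf1a read 24.9 and 26.2 in WT MDPs, 20.2 and 20.8 in Irf8KO MDPs, 11.6 and 12.9 in WT cMoPs and 9.899 and 11.04 in Irf8KO cMoPs, with changes of -0.32 ± 0.062 and -0.23 ± 0.062. Chaf1b read 73.9 and 74.7 in WT MDPs, 51.4 and 51.7 in Irf8KO MDPs, 27.1 and 28.4 in WT cMoPs and 22.3 and 22.7 in Irf8KO cMoPs, with changes of -0.53 ± 0.035 and -0.30 ± 0.035. Uhrf1, which brings the maintenance methyltransferase to new DNA, read 100.3 and 96 in WT MDPs, 76.9 and 72.8 in Irf8KO MDPs, 48.1 and 50.04 in WT cMoPs and 42.9 and 44.2 in Irf8KO cMoPs, with changes of -0.39 ± 0.041 and -0.17 ± 0.041. Knockout and WT arrays did not overlap for these 3 genes.

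**Figure D3:**
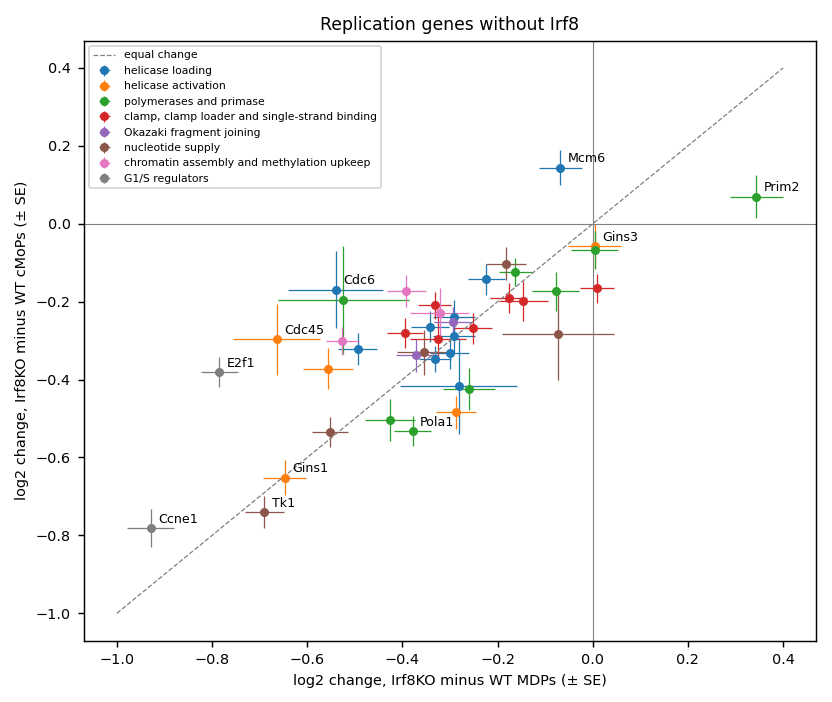
Each point is a replication gene, with its log2 change in Irf8KO MDPs on the x axis and in Irf8KO cMoPs on the y axis; bars are the SE over 2 arrays per group, colours are roles and the dashed line marks equal change. Most points lie below and left of the origin, Ccne1 lies farthest from the origin at -0.93 and -0.78, and Prim2 and Mcm6 are the called rises, each at 1 stage.

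The difference between the stages was tested directly, as the Irf8KO change in cMoPs minus that in MDPs. Of the 42 genes, 4 had a higher value in cMoPs, 3 a lower one and 35 did not pass, while 11.6% of all genes tested were higher and 13.3% lower. The 4 were E2f1 (0.40 ± 0.055, adjusted p = 0.000494), Chaf1b (0.23 ± 0.049, adjusted p = 0.00794), Uhrf1 (0.22 ± 0.059, adjusted p = 0.0203) and Mcm6 (0.21 ± 0.063, adjusted p = 0.0345). The 3 were Prim2 (-0.28 ± 0.078, adjusted p = 0.0272), Mcm10 (-0.20 ± 0.06, adjusted p = 0.0376) and Rfc4 (-0.17 ± 0.051, adjusted p = 0.0315). E2f1, Chaf1b and Uhrf1 fell less in cMoPs than in MDPs, and Mcm10 fell more. The second Uhrf1 probe gave -0.17, of the opposite sign, the second Rfc4 probe gave -0.045 and the second Chaf1b probe 0.25. None of the 7 calls held in all alternatives: with arrays scaled to their median, which moved the median of all genes to -0.23, no gene was higher and 9 were lower. The counts also moved without a single array, to 2 higher without Irf8KO MDP array 2, WT cMoP array 1 or Irf8KO cMoP array 2, and to 0 or 1 lower without either Irf8KO MDP array, either WT cMoP array or Irf8KO cMoP array 1.

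Beyond these 43 genes, 60 further genes of replication, S phase control and repair were listed, and 57 of them were tested in progenitors. In MDPs 35 fell and 2 rose, with a median of -0.19, and in cMoPs 37 fell and 2 rose, with a median of -0.25. Among all genes tested 28.6% fell and 22.8% rose in MDPs, with a median of -0.02. In cMoPs 31.1% of all genes fell and 22.9% rose, with a median of -0.03. The largest called falls in this list were those of E2f4 in MDPs (-1.07 ± 0.15, adjusted p = 0.000209), whose probe was detected on 1 of the 2 Irf8KO MDP arrays, and of E2f7 in cMoPs (-0.99 ± 0.090, adjusted p = 5.6e-06). E2f7, a repressor of the E2F family, also fell in MDPs, by -0.80 ± 0.090 (adjusted p = 4.2e-05). E2f4 is the E2F family member best known from resting cells, and Tfdp1, the partner of E2F factors, changed by -0.29 ± 0.063 in MDPs and 0.17 ± 0.063 in cMoPs, the latter smaller than the shift from -0.03 to -0.34 that scaling to the median gave to all genes there.

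The mitosis genes, 19 of which were tested, were counted for comparison. In Irf8KO MDPs 7 rose, 4 fell and 8 did not pass, with a median of 0.06, and in Irf8KO cMoPs all 19 fell, with a median of -0.43. The difference between the stages was negative and past the threshold in 16 of the 19, with a median of -0.47, against 3 of 42 and a median of 0.03 for the replication genes. Of all genes tested 28.6% fell and 22.8% rose in MDPs, 31.1% fell and 22.9% rose in cMoPs, and 13.3% had a lower stage difference. Mitosis genes were not run through the alternatives, among them the scaling to the array median that lowered this difference over all genes. Stage and slide cannot be told apart here either.

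Markers of other cells moved with the genotype. The summed signal of 8 neutrophil markers was 29.0 to 29.7 in WT MDPs and 109 to 111 in Irf8KO MDPs, where 3 rose and 4 fell and Camp, Ltf and Ngp were not above background. In cMoPs it was 50.2 to 50.7 in WT and 628 to 650.0 in Irf8KO cells, with all 8 markers higher. The sum of 10 erythroid markers was 20.5 to 21.0 in WT and 5.07 to 5.27 in Irf8KO MDPs, where 5 of 6 tested fell, and 11.8 in WT and 4.81 to 5.105 in Irf8KO cMoPs, where 3 of 6 fell. In Irf8KO MDPs the alpha globin genes Hba-a1 and Hba-a2 and also Gata1, Klf1, Epor, Car1 and Alas2 were not above background. The sum of 9 basophil, mast cell and eosinophil markers was 56.9 to 59.1 in WT and 39.5 in Irf8KO MDPs, with 8 of 8 tested lower, and 26.9 to 27.8 against 30.2 to 31.3 in cMoPs, where 3 rose and 4 fell of 8 tested, with a median of -0.56. The sum of 6 megakaryocyte markers was 3.48 to 3.59 against 5.14 to 5.46 in MDPs and 0.916 to 0.965 against 1.65 to 1.702 in cMoPs, with 2 higher and 1 lower at each stage and Itga2b not above background in any of these groups but WT MDPs. For 8 B cell markers the sum was 36.5 to 37.4 in WT and 50.8 to 51.7 in Irf8KO MDPs. There 3 of 3 tested rose, with a median of 2.52. In cMoPs the sum was 15.5 to 15.7 in WT and 16.1 in Irf8KO cells, where 2 rose and 1 fell of 3 tested. Ebf1 and Rag1 were among the B cell markers not above background in any progenitor group. For 8 T and NK cell markers the sum was 156 to 158 against 198 to 204 in MDPs and 61.6 to 62.3 against 121 to 124 in cMoPs. Of 5 tested, 3 rose and 0 fell in MDPs, with Il7r at 4.91, and 2 rose and 0 fell in cMoPs. Cd2, Cd3g and Gzma were not above background in any of these groups. The part of all these markers in the replication results was not tested.

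In 32Dcl.3 cells the replication genes were followed after C/EBPalpha, IRF8 or both were supplied. With C/EBPalpha 43 of 43 passed the test as lower, 27 of them at least 2-fold, and with both factors 43 of 43, 42 of them at least 2-fold. Ccne2, whose probe was dim in both groups, is among them, but its sign turned with normexp background correction, and Gins3 with both factors turned when the percentile was taken over detected probes. Of all 13339 genes tested, 47.2% fell with C/EBPalpha and 46.8% with both, and 12.2% and 20.8% fell by 2-fold or more. With IRF8 alone 35 genes fell, none of them 2-fold, and 8 did not pass, where 25.4% of all genes fell and 1.53% fell 2-fold. The median change was -1.12 with C/EBPalpha, -0.23 with IRF8 and -2.34 with both, against -0.14, -0.03 and -0.10 for all genes tested. These 3 comparisons share the empty vector arrays, so their values are given side by side.

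The order of the groups was nearly uniform. In 39 of the 43 genes (90.7%) every array with empty vectors was above every array with IRF8, these were above every array with C/EBPalpha, and these above both arrays with both factors. Among all genes tested 2514 (18.8%) had that order. It is the order of the replication genes' own medians, so these shares are a description and not a test. The 4 genes without it were Ccne2, Fen1, Gins3 and Rrm2.

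**Figure D4:**
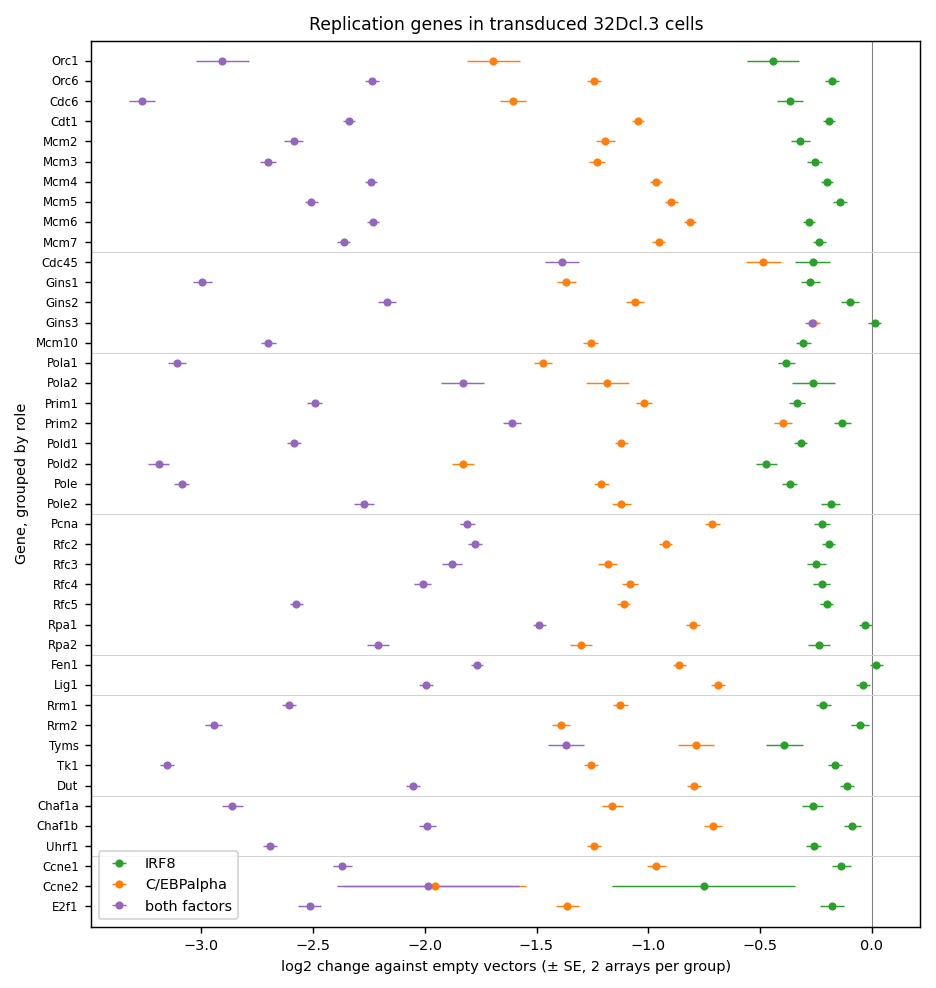
Each row is a replication gene, and points give its log2 change ± SE against empty vectors with IRF8 (green), C/EBPalpha (orange) and both factors (purple), 2 arrays per group. The purple points lie left of the orange ones in every row apart from Gins3 and Ccne2, where they nearly coincide, and the green points run from -0.75 (Ccne2) to 0.02 (Fen1).

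The helicase loading genes fell together. With both factors all 10 fell more than 2-fold, with a median of -2.44, and with C/EBPalpha alone the median was -1.12. Cdc6 read 3.74 and 3.82 with empty vectors, 2.97 and 2.89 with IRF8, 1.24 and 1.25 with C/EBPalpha and 0.414 and 0.374 with both factors. It was 3.04-fold lower with C/EBPalpha and 9.6-fold lower with both (-3.26 ± 0.059, adjusted p = 1.02e-13), the largest fall of the 43 genes. Orc1 read 0.994 and 0.944 with empty vectors, 0.725 and 0.701 with IRF8, 0.277 and 0.323 with C/EBPalpha and 0.117 and 0.143 with both factors, with changes of -1.69 ± 0.12, -0.44 ± 0.12 and -2.90 ± 0.12 for C/EBPalpha, IRF8 and both. The Mcm2-7 subunits changed by between -2.23 (Mcm6) and -2.70 (Mcm3) with both factors. Mcm6, which had not fallen in the knockouts, read 171 and 173 with empty vectors, 142 and 141 with IRF8, 98.6 and 96.9 with C/EBPalpha and 36.2 and 37.02 with both factors, and was 4.7-fold lower with both. Orc6 and Cdt1 changed by -2.23 ± 0.031 and -2.34 ± 0.026.

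In the helicase activation group Gins1 read 8.35 and 8.48 with empty vectors, 7.04 and 6.86 with IRF8, 3.24 and 3.28 with C/EBPalpha and 1.09 and 1.02 with both factors. The change was -1.37 ± 0.042 with C/EBPalpha, -0.28 ± 0.042 with IRF8 and -2.995 ± 0.042 with both, the latter 7.97-fold. Mcm10 read 19.8 and 20.6 with empty vectors, 16.1 and 16.6 with IRF8, 8.49 and 8.43 with C/EBPalpha and 3.08 and 3.14 with both factors, with -0.31 ± 0.034 for IRF8 and -2.70 ± 0.034 for both. Gins2 and Cdc45 reached -2.17 ± 0.041 and -1.39 ± 0.078 with both factors. Gins3 again stood apart from its complex. It read 149 and 151 with empty vectors, 152 and 150.4 with IRF8, 124 and 126 with C/EBPalpha and 127 and 122 with both factors, a change of -0.26 ± 0.029 with C/EBPalpha, 0.01 ± 0.029 with IRF8 (adjusted p = 0.76) and -0.27 ± 0.029 with both, which became 0.02 when the percentile was taken over detected probes.

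The polymerase genes held some of the largest falls. Pold2 read 9.24 and 8.75 with empty vectors, 6.59 and 6.36 with IRF8, 2.54 and 2.52 with C/EBPalpha and 0.951 and 1.02 with both factors. It fell 3.55-fold with C/EBPalpha and 9.13-fold with both, and its change with IRF8, -0.47 ± 0.047 (adjusted p = 6.16e-06), was the largest called fall in that comparison. Pola1 read 15.03 and 15.6 with empty vectors, 11.9 and 11.6 with IRF8, 5.53 and 5.52 with C/EBPalpha and 1.83 and 1.72 with both factors, with changes of -1.47 ± 0.039, -0.38 ± 0.039 and -3.11 ± 0.039. Pole read 16.1 and 16.04 with empty vectors, 12.4 and 12.5 with IRF8, 6.93 and 6.94 with C/EBPalpha and 1.93 and 1.85 with both factors, with changes of -1.21 ± 0.034, -0.37 ± 0.034 and -3.09 ± 0.034. For these 3 genes the groups did not overlap.

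Prim2, the gene that rose in Irf8KO MDPs, is the large subunit of primase. It read 5.87 and 6.13 with empty vectors, 5.43 and 5.51 with IRF8, 4.61 and 4.502 with C/EBPalpha and 1.99 and 1.93 with both factors, a change of -0.40 ± 0.04 with C/EBPalpha and -1.61 ± 0.04 with both. Prim1 changed by -1.02 ± 0.035 and -2.49 ± 0.035. Pold1, Pole2 and Pola2 changed by -2.58, -2.27 and -1.83 with both.

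All 7 genes of the clamp, its loader and single-strand binding fell with both factors, with a median of -1.88, beside -2.44 for helicase loading and -2.54 for the polymerases. Rfc5 read 42.4 and 42.7 with empty vectors, 37.6 and 36.4 with IRF8, 19.6 and 19.8 with C/EBPalpha and 7.11 and 7.18 with both factors, a change of -2.57 ± 0.029 with both. Rfc3 read 6.99 and 7.24 with empty vectors, 5.98 and 6 with IRF8, 3.09 and 3.18 with C/EBPalpha and 2.01 and 1.87 with both factors, a change of -0.25 ± 0.044 with IRF8 and -1.88 ± 0.044 with both. Rpa2 read 6.87 and 6.91 with empty vectors, 5.85 and 5.83 with IRF8, 2.84 and 2.75 with C/EBPalpha and 1.57 and 1.41 with both factors, with changes of -1.30 ± 0.05 and -2.21 ± 0.05 for C/EBPalpha and both. Pcna changed by -0.71 ± 0.036, -0.22 ± 0.036 and -1.81 ± 0.036, and Rpa1 by -0.80 ± 0.029, -0.03 ± 0.029 and -1.49 ± 0.029, of which the IRF8 value did not pass the test. Rfc2 and Rfc4 changed by -1.77 and -2.01 with both.

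Neither of the genes for Okazaki fragments passed the test with IRF8 alone. Fen1 read 59.8 and 59.8 with empty vectors, 60.4 and 60.9 with IRF8, 33.5 and 32.3 with C/EBPalpha and 17.7 and 17.5 with both factors, and its IRF8 change was 0.02 ± 0.028 (adjusted p = 0.601). Lig1 read 69.5 and 70.7 with empty vectors, 67.1 and 69.4 with IRF8, 42.7 and 44.4 with C/EBPalpha and 17.4 and 17.8 with both factors, and its IRF8 change was -0.04 ± 0.031 (adjusted p = 0.338). With C/EBPalpha these genes changed by -0.86 and -0.69, and with both factors by -1.77 and -1.99.

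In nucleotide supply, Tk1 read 62.4 and 62.3 with empty vectors, 56.03 and 55.1 with IRF8, 25.3 and 26.9 with C/EBPalpha and 7.004 and 7.02 with both factors. It changed by -1.25 ± 0.032 with C/EBPalpha, -0.17 ± 0.032 with IRF8 and -3.15 ± 0.032 with both, and was 8.89-fold lower in the last group. Rrm2 read 57.1 and 56.6 with empty vectors, 52.8 and 56.9 with IRF8, 21.97 and 21.4 with C/EBPalpha and 7.58 and 7.19 with both factors, and empty vector and IRF8 arrays overlapped (-0.05 ± 0.039, adjusted p = 0.299). Its change was -1.39 ± 0.039 with C/EBPalpha and -2.94 ± 0.039 with both. Rrm1 and Dut changed by -2.61 and -2.05 with both. Tyms had the largest IRF8 change of this role, -0.39 ± 0.081 (adjusted p = 0.00179), and the smallest with both factors, -1.37 ± 0.081.

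All 3 chromatin genes fell with C/EBPalpha and with both factors. Chaf1a read 15.7 and 15.9 with empty vectors, 12.6 and 13.8 with IRF8, 6.97 and 7.16 with C/EBPalpha and 2.098 and 2.25 with both factors, with changes of -1.16 ± 0.047, -0.27 ± 0.047 and -2.86 ± 0.047. Chaf1b read 34.8 and 36.4 with empty vectors, 33.04 and 33.97 with IRF8, 22.2 and 21.4 with C/EBPalpha and 8.69 and 9.29 with both factors, with changes of -0.71 ± 0.039 and -1.99 ± 0.039 for C/EBPalpha and both and -0.09 ± 0.039 for IRF8, not past the threshold. Uhrf1 read 56.5 and 55.3 with empty vectors, 46.7 and 46.6 with IRF8, 23.3 and 23.9 with C/EBPalpha and 8.87 and 8.43 with both factors, with changes of -1.24 ± 0.032, -0.26 ± 0.032 and -2.69 ± 0.032. The groups did not overlap for any of the 3 genes.

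Of the G1 to S regulators, Ccne1 read 24.7 and 24.9 with empty vectors, 22.9 and 22.2 with IRF8, 12.8 and 12.6 with C/EBPalpha and 4.58 and 5.03 with both factors. Its change was -0.96 ± 0.041 with C/EBPalpha, -0.14 ± 0.041 with IRF8 and -2.37 ± 0.041 with both. E2f1 read 8.74 and 8.14 with empty vectors, 7.65 and 7.27 with IRF8, 3.13 and 3.44 with C/EBPalpha and 1.47 and 1.48 with both factors, with changes of -1.36 ± 0.052, -0.18 ± 0.052 and -2.52 ± 0.052. Ccne2 was faint, at 0.0663 and 0.0624 with empty vectors, 0.04 and 0.0364 with IRF8, 0.0207 and 0.0133 with C/EBPalpha and 0.0173 and 0.0152 with both factors. The fitted values for Ccne2 changed sign with normexp background correction, so no direction is drawn from them in the groups where it was dim.

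The groups with 1 factor were then set against the group with both. With IRF8 added to C/EBPalpha 41 of the 43 genes fell, 31 of them at least 2-fold, where 37.9% of all genes fell and 8.47% fell 2-fold, and the median was -1.29 against 0.002 for all genes tested. The largest falls were those of Tk1 (-1.90 ± 0.032), Pole (-1.88 ± 0.034), Chaf1a (-1.70 ± 0.047), Cdc6 (-1.66 ± 0.059), Pola1 (-1.64 ± 0.039) and Gins1 (-1.63 ± 0.042). In their own roles Rfc5 (-1.46 ± 0.029), Ccne1 (-1.40 ± 0.041) and Lig1 (-1.31 ± 0.031) fell most. The 2 that did not pass were Gins3 (-0.01 ± 0.029, adjusted p = 0.798) and Ccne2, dim in both groups.

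C/EBPalpha added to IRF8 gave lower calls for 43 of 43 genes, with the same limits for Ccne2 and Gins3, 41 of them at least 2-fold, where 46.1% of all genes fell and 16.5% fell 2-fold, with a median of -2.13. Tk1 (-2.99 ± 0.032), Cdc6 (-2.90 ± 0.059), Rrm2 (-2.89 ± 0.039), Pola1 (-2.73 ± 0.039) and Gins1 (-2.72 ± 0.042) fell most, and Chaf1a, Rfc5, E2f1 and Lig1 fell most in their roles, at -2.60, -2.37, -2.34 and -1.96. IRF8 cells set directly against C/EBPalpha cells had higher signals for 43 of 43 genes (Ccne2 not with normexp), 11 of them at least 2-fold, where 48.7% of all genes were higher and 9.74% were 2-fold higher. The median was 0.88 against 0.16 for all genes tested. The widest gaps were in Pold2 (1.35 ± 0.047), Rrm2 (1.34 ± 0.039), Orc1 (1.25 ± 0.12) and Cdc6 (1.24 ± 0.059), followed in their roles by E2f1 (1.18 ± 0.052), Gins1 (1.09 ± 0.042), Rpa2 (1.06 ± 0.05), Uhrf1 (0.98 ± 0.032) and Fen1 (0.88 ± 0.028), while Cdc45 had the narrowest (0.22 ± 0.078).

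Whether both factors together did more than the sum of each on the log2 scale was tested as an interaction. It was negative and past the threshold in 40 of 43 genes, -1 or lower in 26 of them, where 31.9% of all genes tested were called negative and 6.27% were called at -1 or lower. The median was -1.10 against -0.01 for all genes tested. The largest values were those of Tk1 (-1.73 ± 0.045, adjusted p = 1.23e-10), Pole (-1.51 ± 0.047, adjusted p = 3.83e-10), Rrm2 (-1.50 ± 0.055, adjusted p = 1.06e-09), Mcm5 (-1.47 ± 0.042, adjusted p = 2.03e-10), Chaf1a (-1.44 ± 0.067, adjusted p = 6.59e-09) and Gins1 (-1.35 ± 0.06, adjusted p = 4.52e-09). For Tk1 the separate changes summed to -1.42, and the change with both was -3.15. For Rrm2 the sum was -1.44 and the change with both -2.94.

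By role, the median interaction was -1.12 for helicase loading, -1.11 for polymerases and primase, -1.26 for nucleotide supply and -1.19 for chromatin assembly. The clamp, loader and single-strand binding genes had a smaller one, -0.67, although all 7 passed. Prim2 had an interaction of -1.08 ± 0.056 although its separate changes summed to only -0.53. The genes that did not pass were Gins3 (-0.02 ± 0.041), Tyms (-0.19 ± 0.12) and Ccne2. Those of Orc1 (-0.77 ± 0.17) and Pola2 (-0.38 ± 0.14) passed but became 0.15 and 0.10 with normexp background correction.

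**Figure D5:**
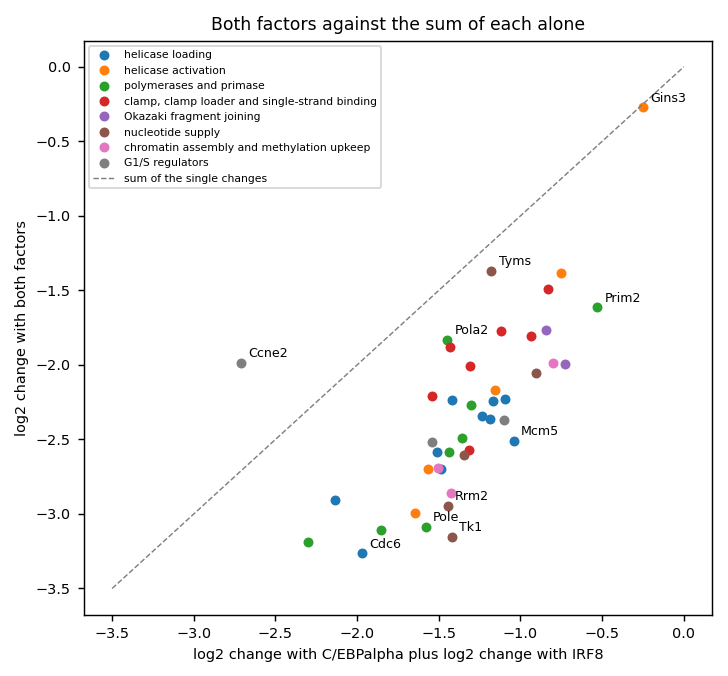
Each point is a replication gene in 32Dcl.3 cells, with the sum of its log2 changes with C/EBPalpha alone and IRF8 alone on the x axis and its change with both on the y axis; the dashed line is the sum itself and colours are roles. Gins3 lies on the line within its SE and the dim Ccne2 above it; the other points lie below, Tyms and Pola2 closest to the line.

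The wider list of replication genes moved the same way. Of its 59 tested genes, 54 fell with C/EBPalpha, 35 with IRF8 and 55 with both, with medians of -0.91, -0.22 and -1.70. Among all genes tested 47.2%, 25.4% and 46.8% fell in that order, with medians of -0.14, -0.03 and -0.10. The gene that fell most with C/EBPalpha was Dctpp1 (-1.92 ± 0.036), a pyrophosphatase that clears damaged nucleotides, and with both it was Brca1, whose probe was not well above background there. Pold4, the smallest subunit of polymerase delta, went the other way in all 3 groups. It read 2.68 and 2.61 with empty vectors, 4.52 and 4.44 with IRF8, 6.70 and 6.34 with C/EBPalpha and 8.44 and 8.83 with both. Its rises were 0.76 ± 0.041 with IRF8, 1.30 ± 0.041 with C/EBPalpha and 1.71 ± 0.041 with both, in contrast to the falls of Pold1 (-2.58) and Pold2 (-3.19) with both.

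All 20 mitosis genes fell with C/EBPalpha (median -0.87) and with both factors (median -2.46), and 12 fell with IRF8. Of all genes tested 47.2% fell with C/EBPalpha, 46.8% with both and 25.4% with IRF8. The median interaction of the mitosis genes was -1.48, against -1.10 for the replication genes. Markers of maturing neutrophils rose in the same cells. Their summed signal was 93.1 to 94.0 with empty vectors, 65.8 with IRF8, 3252 to 3293 with C/EBPalpha and 1821 to 1828 with both, and all 8 markers rose with C/EBPalpha and with both. The sum of 10 erythroid markers was 18.3 to 18.4 with empty vectors, 10.35 to 10.705 with IRF8, 7.79 to 8.06 with C/EBPalpha and 3.53 to 3.60 with both, with Alas2 and Car2 among those not above background in any group. The sum of 9 basophil, mast cell and eosinophil markers was, in that order, 37.1 to 37.3, 26.2 to 27.6, 19.8 to 20.2 and 5.48 to 5.599, with Fcer1a, Ms4a2 and Prg3 not above background in any group. The single markers did not all follow this sum: of 6 tested, 4 rose and 1 fell with C/EBPalpha, 1 rose and 5 fell with IRF8, and 1 rose and 4 fell with both. The sum of 6 megakaryocyte markers was 38.3 to 39.0, 29.9 to 30.5, 12.5 to 12.8 and 14.3 in that order, and 2 rose and 2 fell with C/EBPalpha, 1 rose and 3 fell with IRF8, and 2 rose and 4 fell with both. Their part in the replication results was not tested.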

How the data were processed

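Intensity values, background-subtracted and detrended by Agilent Feature Extraction 10.7.3.1 (protocol GE1_107_Sep09), were taken from the deposited scanner output, whose headers name mouse build mm9. They also hold raw median intensities and 0/1 flags ("other" values) for detection, saturation and outliers, per the file headers. The authors' deposited series values are intensities which, judged from the values, share a 75th percentile within the MDPs and within the cMoPs and follow the same quantiles in 32Dcl.3 cells. Here outlier spots were dropped, spots of a probe averaged and the log2 of each value computed relative to the 75th percentile of its array. Filtering retained a probe where some group of its system (progenitors or 32Dcl.3) had it well above background on both arrays, and the brightest stood for its gene, leaving 11964 genes in progenitors and 13339 in 32Dcl.3 cells. Symbols came from RefSeq accessions (GRCm38.p6): of 55681 probes 26762 matched 1 symbol and 28919 none, and 59 of the 60 further replication genes had a probe (not Skp2). Limma 3.58.1 in R 4.3.3 fitted either system as 4 group means with a shared spread (4 residual degrees of freedom) and an intensity trend, and the fit was tested on simulated data. Figures used matplotlib 3.10.9.

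For a probe dim in a whole group a bound on its change was computed, from the higher of its own and the faintest detected signal. This bound did not enter the fit, and the main changes and calls, those of Ccne2 included, use the values without it. In each comparison the genes named were the 4 largest called rises and falls and the largest change of each role (for the differences of differences, the 6 largest), with every other gene accounted for. Signals on each array are given for genes so named in 2 or more comparisons. The genes and lists were chosen with earlier results of these data known. The replicate numbers in the labels name experiment 1 or 2, with no statement that groups shared a day or batch, and were not used as pairs: correlations of the residuals for the same number ran from -0.065 to 0.071. Alternatives covered scaling, background correction (normexp on median signals, offset 50), filters, probe choice, the deposited values, a replicate block and each array left out. Precision is limited by the 2 arrays of a group. Values of some listed genes are not reported here.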

Additional observations from a re-analysis of the deposited data

Results flagged for a closer look

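The Irf8KO change differed between cMoPs and MDPs for 7 of 42 replication genes by limma's test of the difference (cMoPs minus MDPs). It was higher for 4 and lower for 3, where 11.6% of all genes tested were higher and 13.3% lower. None of the 7 calls held in all alternatives. The 6 largest in size are given here and Rfc4 was the other. The difference was 0.40 for E2f1, 0.23 for Chaf1b, 0.22 for Uhrf1, 0.21 for Mcm6, -0.28 for Prim2 and -0.20 for Mcm10. Second probes, detected on all 8 arrays, gave -0.17 for Uhrf1, -0.045 for Rfc4 and 0.25 for Chaf1b. Stage and slide cannot be told apart in these values.

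Of the 40 replication genes with a called interaction of IRF8 and C/EBPalpha in 32Dcl.3 cells, the 6 with the largest were Tk1 (-1.73), Pole (-1.51), Rrm2 (-1.50), Mcm5 (-1.47), Chaf1a (-1.44) and Gins1 (-1.35). The brighter Pole probe gave the value above, and a second one, detected on 4 of the 8 arrays, gave 0.50. That second probe was detected on the empty vector and IRF8 arrays only. Its value therefore rests on dim signals with C/EBPalpha and with both factors, and no direction is drawn from it.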

How the results depend on the processing

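Over all comparisons and alternatives 7763 values of single replication genes were recomputed. Of these 7538 kept their direction and side of the threshold, 144 lost their call, 65 gained one and 16 reversed. Genes lower in every alternative numbered 31 in Irf8KO MDPs, 27 in Irf8KO cMoPs, 41 with C/EBPalpha, 23 with IRF8 and 41 with both factors. The count lowered by IRF8 alone ranged from 25, with arrays scaled to their median, to 37. Counts of lower genes kept within 1.5 times the reported count in each comparison except the difference between the knockouts. There, 4 genes were higher and 3 lower as reported. Scaling to the array median gave 0 and 9, normexp gave 7 higher, and no filter on dim probes gave 2 and 0. Leaving out 1 array gave 2 to 5 higher and 0 to 3 lower. The causes were not tested.

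The reversals fell on few genes. With arrays scaled to their median, which moved the median of all genes in Irf8KO cMoPs from -0.03 to -0.34, Mcm6 and Prim2 changed there by -0.17 (adjusted p = 0.0723) and -0.24 (adjusted p = 0.00538), and their stage difference was -0.009 for Mcm6 and, for Uhrf1, -0.001. With the percentile over detected probes, Gins3 changed by 0.017 with both factors, 0.074 against C/EBPalpha and 0.012 against IRF8. With normexp, Ccne2 changed by 0.39 with C/EBPalpha, 0.56 with both, 0.61 for both against IRF8 and -0.44 for IRF8 against C/EBPalpha, and the interaction was 0.15 for Orc1 and 0.098 for Pola2. When dim signals were set to the lowest detected one, Ccne2 was at 0.11 with both, 0.87 for both against IRF8 and -0.49 for IRF8 against C/EBPalpha.

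With the replicate number as a block, 34 genes were lower in each knockout, 43 with C/EBPalpha, 35 with IRF8 and 43 with both, as without it. In the stage difference it gave 5 higher and 3 lower. Slide as a block was not run. Each comparison of genotypes or vectors lies within a slide, and in the stage difference slide cannot be told apart from stage. Fitting each slide alone gave 34 lower in MDPs and 38 in cMoPs.

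Replicate arrays differed more in MDPs (SD of the log2 difference over all genes 0.28 and 0.30) than in cMoPs (0.22 and 0.20), and the shared SE does not show this.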
